A study of Mus musculus with 8 samples.

Results

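CD8 effector T cells were examined in whole mouse kidney profiled by single-cell RNA sequencing. The cells were every cell that the authors' deposited cell table assigns to the class CD8 effector, 716 of 77393 cells (0.925%). C57BL/6 mice of 7 weeks were used throughout, and no genetic change is named in the labels. The Control group had 6 samples, and the UUO group had 2 samples of unilateral ureteric obstruction, a ligation of the left ureter followed by collection on day 7. Control samples carry the same ligation text in their labels, which therefore do not tell how Control animals were handled. Of the 716 cells, 121 came from Control and 595 from UUO kidneys, so UUO supplied 83.1% of the class against 40.5% of all cells.

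CD8 T cells recognise peptides that other cells show on class I histocompatibility molecules. Once activated they become effector cells, which kill their targets with granzymes and perforin and release interferon gamma and chemokines. The genes usually used to mark such cells include Cd8a, which encodes the alpha chain of the CD8 co-receptor, Gzmk, which encodes the protease granzyme K, and Ccl5, which encodes a chemokine that draws in further leukocytes. In an obstructed kidney, T cells are known to gather between the tubules. Gene-level values were not analysed here, so the class was not checked against these markers and is called by the authors' name. Likewise, markers of other cell types could not be summed in these cells.

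The 8 libraries held 2263 to 18393 cells and 4375942 to 56755823 UMIs (unique molecular identifiers, each standing for 1 transcript molecule counted). Controls 5 and 6 and both UUO libraries held over 10000 cells, and the 4 smaller libraries were all Control. Controls 3 and 4 were counted as 1 sample, because a chi-square test of their class makeup gave p = 0.0509, just above the threshold of 0.05. For any other pair of Control libraries the chi-square p was at most 4.09e-41. Controls 3 and 4 shared 10 cell barcodes and are therefore different cells. Of the 716 CD8 effector cells, 46 (6.42%) carried a barcode that also occurred in another library, against 8.48% of all cells. In 0 of these cases was the cell with the same barcode also a CD8 effector cell, and in 0 did it have the same UMIs and genes. The labels name no separate animals, so the spread on which every p-value rests may be technical.

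CD8 effector cells made up a larger share of the kidney cells captured after obstruction. In UUO 1 they were 216 of 18393 cells, or 1.17% (exact 95% binomial interval 1.02 to 1.34), and in UUO 2 they were 379 of 12930, or 2.93% (2.65 to 3.24). The interval, like the others below, covers counting error only. The intervals of the 2 UUO libraries did not overlap. In Controls 1, 2, 5 and 6 the class held 12, 11, 30 and 21 cells, or 0.333% (0.172 to 0.582), 0.171% (0.0854 to 0.306), 0.186% (0.125 to 0.265) and 0.154% (0.0952 to 0.235). Control 3 held 9 cells, 0.398% (0.182 to 0.754), and Control 4 held 38, 0.962% (0.682 to 1.32). Every Control library lay below both UUO libraries, but the intervals of Control 4 and UUO 1 overlapped.

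The difference in log2 odds, UUO minus Control, was 2.81 (95% interval 1.15 to 4.48), and limma called the class higher with an adjusted p of 0.00429 over 28 classes. The share rose 6.41-fold, from 0.320% ± 0.254 (SD, n = 5) to 2.05% ± 1.24 (SD, n = 2). Calls were common in this comparison: limma called 50% of the 28 classes in either direction and 21.4% higher. The rise was not particular to this class. The T cell classes Th17, Treg, CD8 T and CD4 T were called higher as well, at 3.10, 2.83, 2.76 and 2.60. The classes NK and NKT were higher by 1.77 and 1.51 and were not called. The interval uses a variance shared by all classes. The exact two-sided permutation p was 0.0476, the smallest that 5 samples against 2 can give, and 0.111 after adjustment over the classes. Without UUO 2 the difference was 2.14 and was not called (limma adjusted p = 0.108). That fit has 1 UUO library, which is assumed to vary like the Control samples.

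The pooling of Controls 3 and 4 rests on all classes together. For CD8 effector cells alone, 9 of 2263 against 38 of 3950 cells, Fisher's exact p was 0.0142, and 0.0618 after adjustment over 6 denominators. The adjusted value does not pass, but the denominators all take the same 9 and 38 cells and are not separate questions. Not passing does not show that the 2 libraries agree in this class. Fisher's test here compares the cells of 2 libraries and no condition. With the 8 libraries as separate samples the difference was 2.65 and the limma adjusted p 0.00837.

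**Figure D1:**
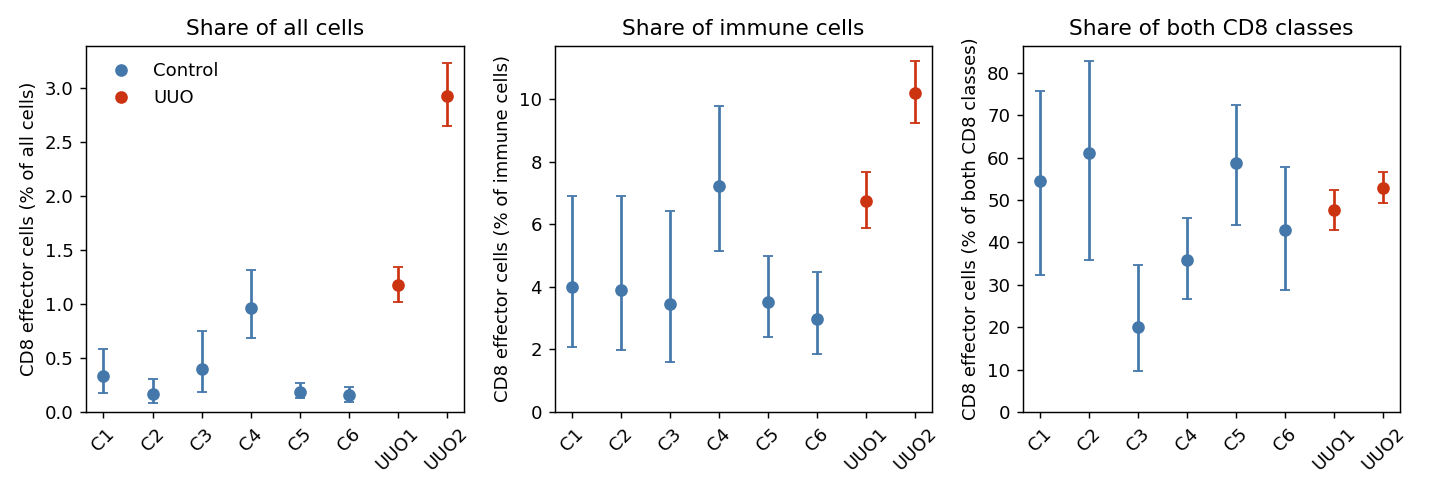
CD8 effector cells as a percentage of all cells (left), immune cells (middle) and both CD8 classes together (right), in Control libraries 1 to 6 (C1 to C6, blue) and UUO libraries 1 and 2 (red). Points are single libraries and bars exact 95% binomial intervals for counting error; both UUO points lie above every Control point on the left, and inside the Control range of 20% to 61.1% on the right.

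These are shares of the cells captured, in which more cells of 1 class and fewer of another cannot be told apart. The class was next set against cells ever closer to it. Outside the proximal tubule, the largest class, CD8 effector cells were 5.67% and 7.82% of the cells in UUO 1 and 2 and 0.505% to 1.71% in the 6 Control libraries. Of immune cells they were 6.74% (5.90 to 7.66) in UUO 1 and 10.2% (9.25 to 11.2) in UUO 2. The Control libraries 1 to 6 held 4.01%, 3.91%, 3.45%, 7.22%, 3.53% and 2.96% of immune cells. Control 4 lay above UUO 1, and the groups did not overlap only once Controls 3 and 4 were pooled, at 5.97%. The log2 odds difference among immune cells was 1.10 (95% interval -0.22 to 2.41), which limma did not call (adjusted p = 0.352 over 15 classes, of which it called 0%). Without Controls 3 and 4 it was called, at 1.25 (limma adjusted p = 0.0433), and so it was among the libraries over 10000 cells, at 1.42 (limma adjusted p = 0.0456). Both runs leave out Control 4, the highest Control library, and limma called 5 and 6 of the 15 classes in them. They are not separate checks. The second run sets only Controls 5 and 6 against both UUO libraries, where the smallest possible exact permutation p is 0.333.

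Among lymphoid cells, which add B cells, natural killer (NK) cells and proliferating lymphocytes to the T cell classes, CD8 effector cells were 10.5% ± 3.01 (SD, n = 2) in UUO and 6.18% ± 0.759 (SD, n = 5) in Control. UUO 1 held 8.39% and UUO 2 held 12.6%, against 4.07% to 8.24% in the 6 Control libraries, so the groups did not overlap, though the exact intervals of UUO 1 and Control 4 did. The lowest and highest Control values are those of Controls 3 and 4. The Control SD takes them as 1 sample at 6.89% and leaves out the spread between them. The log2 odds difference of 0.78 had an exact permutation p of 0.0476, and 0.143 after adjustment over 3 denominators. It was 0.45 without UUO 2 and 1.11 without UUO 1.

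Among T lineage cells, taken as CD4 T, Th17, Treg, CD8 T, CD8 effector and NKT, the class made up 9.67% in UUO 1, 15.1% in UUO 2 and 5.26% to 12.5% in the Control libraries. UUO 1 lay inside the Control range. The log2 odds difference of 0.35 did not pass the exact permutation test (p = 0.286, adjusted p = 0.429).

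Against its nearest relative, the class the authors named CD8 T and the only other class named for CD8, the effector class kept no difference larger than the spread between samples. Effector cells were 47.6% (42.9 to 52.3) of both CD8 classes in UUO 1 and 52.9% (49.2 to 56.6) in UUO 2. In Controls 1 to 6 they were 54.5%, 61.1%, 20%, 35.8%, 58.8% and 42.9%, from only 18 to 106 CD8 cells a library. The Control libraries spread from 20% to 61.1%, and Controls 3 and 4 held the lowest values. The UUO libraries held 454 and 716 CD8 cells and were fewer, so the 2 spreads are not alike in precision. Whether they differ was not tested. The means were 50.3% ± 3.79 (SD, n = 2) and 49.7% ± 12.5 (SD, n = 5), a log2 odds difference of 0.05 with an exact permutation p of 1. Without Controls 3 and 4 the difference had the other sign, -0.23.

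The numbers of CD8 effector cells were then set against those of 5 other T and NK classes, a comparison added after the data were seen. NKT cells, T cells that carry NK receptors, gave the widest separation. There were 138 and 158 CD8 effector cells per 100 NKT cells in UUO 1 and 2, and 25 to 91.7 in the 6 Control libraries. The groups did not overlap. The log2 ratio differed by 1.29, with an exact permutation p of 0.0476 that became 0.238 after adjustment over the 5 ratios. Per 100 NK cells, innate killers that share granzymes and perforin with CD8 effector cells, there were 91.9 and 128.5 in UUO and 19.1 to 92.3 in Control. Control 1, at 92.3, lay just above UUO 1, and the log2 difference of 1.04 did not pass (exact permutation p = 0.143, adjusted p = 0.357).

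Against the helper classes the groups overlapped throughout. Per 100 CD4 T cells there were 22.9 and 47.3 CD8 effector cells in UUO and 14.9 to 84.4 in Control. Per 100 Th17 cells, the helper class that makes interleukin 17, there were 61.0 and 107 in UUO and 50 to 150 in Control. Per 100 Treg cells, which restrain immune responses, there were 66.1 and 94.99 in UUO and 18.0 to 220 in Control, the last from 11 CD8 effector and 5 Treg cells in Control 2. The log2 differences were 0.26, -0.28 and -0.02, with exact permutation p of 0.810, 0.429 and 1. The CD4 T and Treg classes themselves differed in Controls 3 and 4, which together held 67 CD4 T and 169 Treg cells beside 47 CD8 effector cells.

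Proliferating lymphocytes (Prolif Ly) were few, and the ratio to them was not tested. There were 568.4 and 997 CD8 effector cells per 100 Prolif Ly cells in UUO 1 and 2, and 26.3 in Control 5, which held 114 Prolif Ly cells. The other Control libraries held 2 to 21 Prolif Ly cells and 100 to 633 CD8 effector cells per 100 of them.

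**Figure D2:**
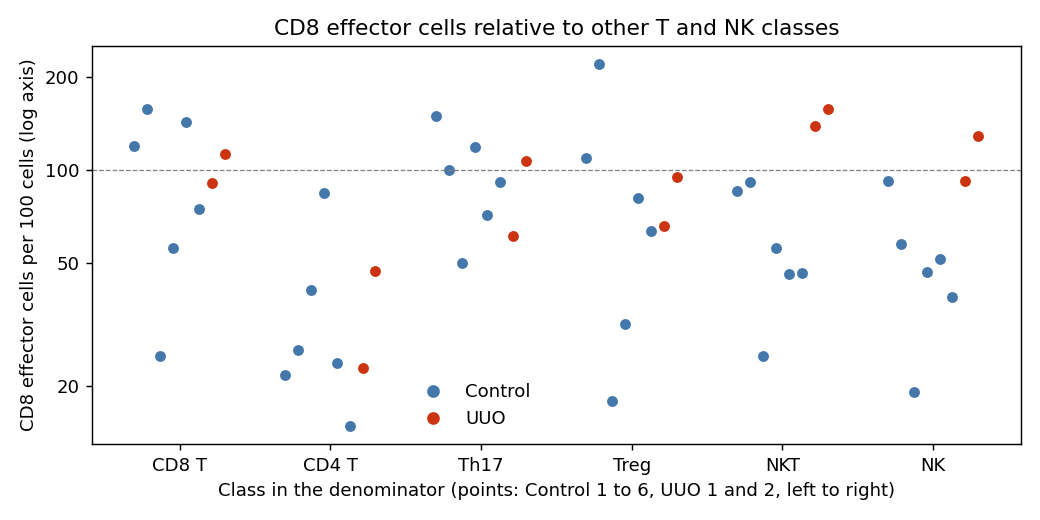
CD8 effector cells per 100 cells of each other T or NK class (log axis), with 1 point per library, Control 1 to 6 in blue and UUO 1 and 2 in red. The dashed line marks equal numbers; both UUO points lie above all Control points against NKT, at 138 and 158. Against CD8 T, CD4 T, Th17 and Treg both lie inside the Control range, and against NK only UUO 2 lies above it.

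Transcript content per cell was compared next. Over all 716 cells the median was 1709.5 UMIs and 861 genes, with 5% of the cells under 938 UMIs and 5% above 3506. The sample medians of UMIs were 1610 in UUO 1 and 1781 in UUO 2. In Controls 1 to 6 they were 1425, 1706, 1852, 1453.5, 2479.5 and 1542. The UUO values lay inside the Control range, and Control 5 stood above every other library. Among samples with at least 20 cells of the class, which pooled Controls 3 and 4 at 1518, the UUO to Control ratio was 0.942 (95% interval 0.585 to 1.52, n = 2 and 3), and limma did not call it (adjusted p = 0.785 over 19 classes). It called 10.5% of those classes. Without Control 5 the log2 difference had the other sign, 0.15 in place of -0.09.

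The median log2 difference in UMIs over the 19 classes was 0.40, and CD8 effector cells ranked 19 of 19. That rank rests on unlike samples. Controls 1 and 2 held 12 and 11 CD8 effector cells and were left out for this class. They entered for classes such as CD4 T, with 55 and 42 cells. Their median UMIs over all cells were 1292 and 1599, against 2944 in Control 5. With a minimum of 5 cells the log2 difference for CD8 effector cells was -0.0030. Over all cell classes together the median UMIs of a library were 2496 and 2584 in UUO and 1292 to 2944 in Control. Whether CD8 effector cells differ from the other classes in this was tested only against CD8 T, NKT and NK cells, below.

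For genes detected per cell the medians were 825 and 896 in UUO 1 and 2 and 671.5, 785, 860, 730.5, 1028 and 719 in Controls 1 to 6. Among samples with at least 20 cells of the class the ratio was 1.04 (95% interval 0.726 to 1.49, n = 2 and 3). It was not called by limma (adjusted p = 0.807, with 5.26% of 19 classes called). The class again ranked 19 of 19, over samples that were unlike between classes in the same way. The median log2 difference over classes was 0.33 and that of CD8 effector cells 0.06, or 0.13 with a minimum of 5 cells.

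The edges of the distributions differed between libraries. Cells of the class under 1000 UMIs were 26 of 216 in UUO 1 (12.0%) and 3 of 379 in UUO 2 (0.792%). They were 3 of 12, 1 of 11, 8 of 38 and 5 of 21 in Controls 1, 2, 4 and 6 (25%, 9.09%, 21.1% and 23.8%). The least deep cells of the class had 1326 UMIs in Control 3 and 1274 in Control 5. Such cells were thus a larger share in Controls 1, 4 and 6 than in either UUO library. At the other end 23 cells of the class had over 4000 UMIs, made up of 17 of 379 in UUO 2, 4 of 30 in Control 5 and 1 each in Control 4 and UUO 1. No doublets were called here, and whether these cells are doublets was not tested.

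The mitochondrial share of UMIs, which is often read as a sign of cell stress or damage, was lower in the class than in the kidney cells as a whole, as it was in related lymphocytes. The class median was 2.45% in UUO 1 and 2.97% in UUO 2. In Controls 1 to 6 it was 2.30%, 1.61%, 1.80%, 2.07%, 3.99% and 4.52%, against 8.74% to 17.4% for the medians of all cells in the 8 libraries. In UUO 1, CD8 T, NKT and NK cells had medians of 2.56%, 2.88% and 2.37%. Controls 5 and 6 were the highest and the other Control libraries the lowest, with UUO between them. Among samples with at least 20 cells of the class, which left out Controls 1 and 2, the UUO minus Control difference was -0.78 percentage points. Its 95% interval was -5.34 to 3.78 (n = 2 and 3), and limma did not call it (adjusted p = 0.887, with 0% of 19 classes called). With a minimum of 5 cells the difference was -0.17. The median difference over classes was -0.996 points. The value for CD8 effector cells was -1.55 without Control 4, -0.27 without Control 6 and -0.53 without Control 5. Without Control 4, Control 3 fell out as well, since its 9 cells were under the minimum of 20.

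CD8 effector cells with at least 10% mitochondrial UMIs numbered 12 of 121 in Control and 27 of 595 in UUO. Controls 5 and 6 held 5 and 4 of the 12. With cells at or above 10% left out of every class, the share of all cells differed by 3.03 in log2 odds (limma adjusted p = 0.0105). That limit took 5.45% of the class but most cells of many libraries. The median over all cells was above 10% in every library except Controls 1 and 2. The denominator is therefore a different set of cells, and the 2 log2 odds differences are not like for like.

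**Figure D3:**
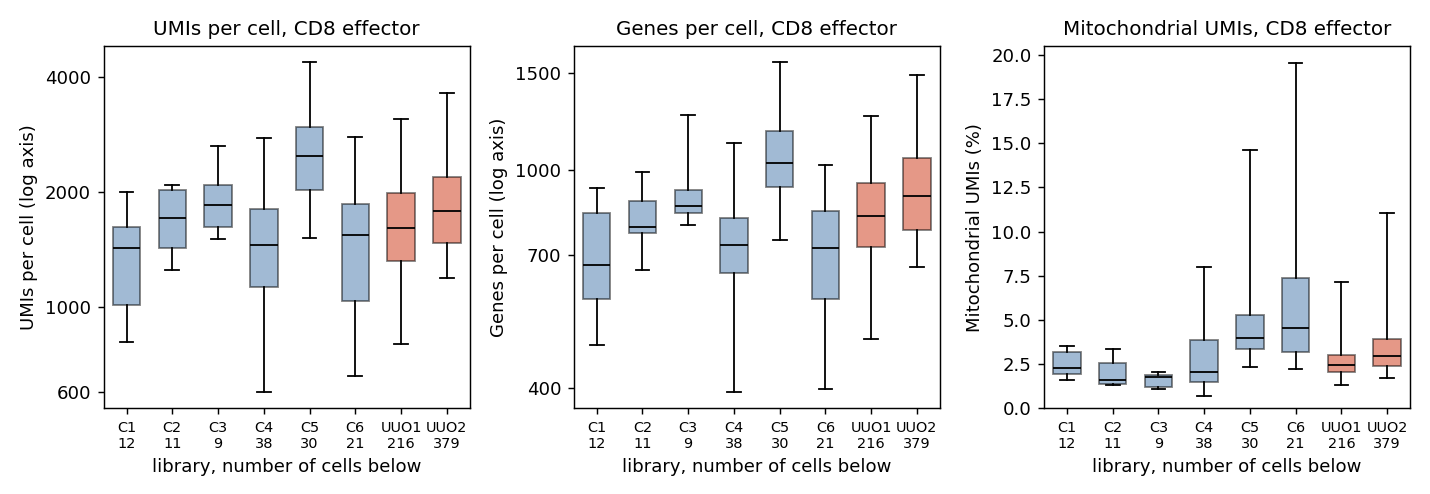
UMIs and genes per cell (log axes) and mitochondrial percentage of the CD8 effector cells of each library, with Control libraries C1 to C6 in blue, UUO libraries in red and the number of cells under each name. Boxes span the quartiles with the median as a line and whiskers the 5th to 95th percentile; the UUO medians of 1610 and 1781 UMIs lie inside the Control range, which reaches 2479.5 in C5.

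Each sample was then used as its own control, setting CD8 effector cells beside CD8 T, NKT and NK cells of the same sample. The pooled Controls 3 and 4 mix 2 libraries, with CD8 effector medians of 1852 and 1453.5 UMIs, and are not a comparison within 1 library. The classes were called from the expression of the same cells, so these measures are not fully independent of the class. CD8 effector cells held more UMIs than CD8 T cells in 4 of 6 samples and more genes in 5 of 6. In Control 5 the medians were 2479.5 UMIs in CD8 effector and 1460 in CD8 T cells, in Control 6 they were 1542 and 1144, and in UUO 1 they were 1610 and 1431. In UUO 2 the order was turned, at 1781 and 1910, as it was in the pooled Controls 3 and 4, at 1518 and 1602.5. The mean log2 differences were 0.23 ± 0.33 for UMIs and 0.19 ± 0.20 for genes (SD, n = 6). Neither passed an exact sign-flip permutation test (p = 0.156 and 0.0938, both 0.309 after adjustment over the 9 comparisons). Without Control 5 the difference in UMIs was 0.13.

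The mitochondrial share had a lower median in CD8 effector than in NKT cells in 6 of 7 samples, for example 3.99% against 5.22% in Control 5 and 2.45% against 2.88% in UUO 1. The pooled Controls 3 and 4 went the other way, at 1.96% against 1.70%. The mean difference was -0.76 ± 0.55 percentage points (SD, n = 7), with an exact sign-flip permutation p of 0.0312 and an adjusted p of 0.281. Against CD8 T and NK cells it was -0.31 ± 0.44 (n = 6) and -0.41 ± 0.68 (n = 7), and neither passed (exact sign-flip permutation p = 0.156 and 0.172). Without Control 5 the CD8 T value was -0.19, and without Control 2 the NK value was -0.21. With means over cells in place of medians the NK value was -0.94 (exact sign-flip permutation p = 0.0156, the smallest possible, adjusted p = 0.0938), and with a minimum of 30 cells the values against CD8 T and NK were -0.0042 and -0.066.

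CD8 effector cells held more UMIs than NKT cells in Controls 1, 2, 5 and 6 and fewer in both UUO samples and in the pooled Controls 3 and 4. In UUO 1 the medians were 1610 and 1793, and in UUO 2 they were 1781 and 2115. The UUO minus Control difference of these log2 differences was -0.53 against NKT, -0.40 against NK and -0.30 against CD8 T. In a comparison added after the data were seen, the exact permutation p was 0.0952, 0.143 and 0.333, and at least 0.571 after adjustment over 9 such comparisons.

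Genes detected rise with UMIs, so genes were also compared in cells with at least 1000 and under 2000 UMIs only, a comparison added after the data were seen. There CD8 effector cells held more genes than CD8 T cells in 5 of 6 samples, with medians of 795 against 727 in UUO 1, 816 against 789 in UUO 2, 747 against 681 in Control 5 and 733 against 667 in Control 6. The pooled Controls 3 and 4 had 762 against 779. Control 5 gave only 7 cells of each of these 2 classes. UMIs can still differ between classes inside this range, which was not tested. The mean log2 difference of 0.088 ± 0.067 (SD, n = 6) corresponds to 1.06-fold and did not pass (exact sign-flip permutation p = 0.0625, adjusted p = 0.188 over 3 classes). Against NKT and NK cells the means were 0.037 ± 0.071 and 0.053 ± 0.11 (SD, n = 7), with p of 0.297 and 0.250 in the same exact test.

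**Figure D4:**
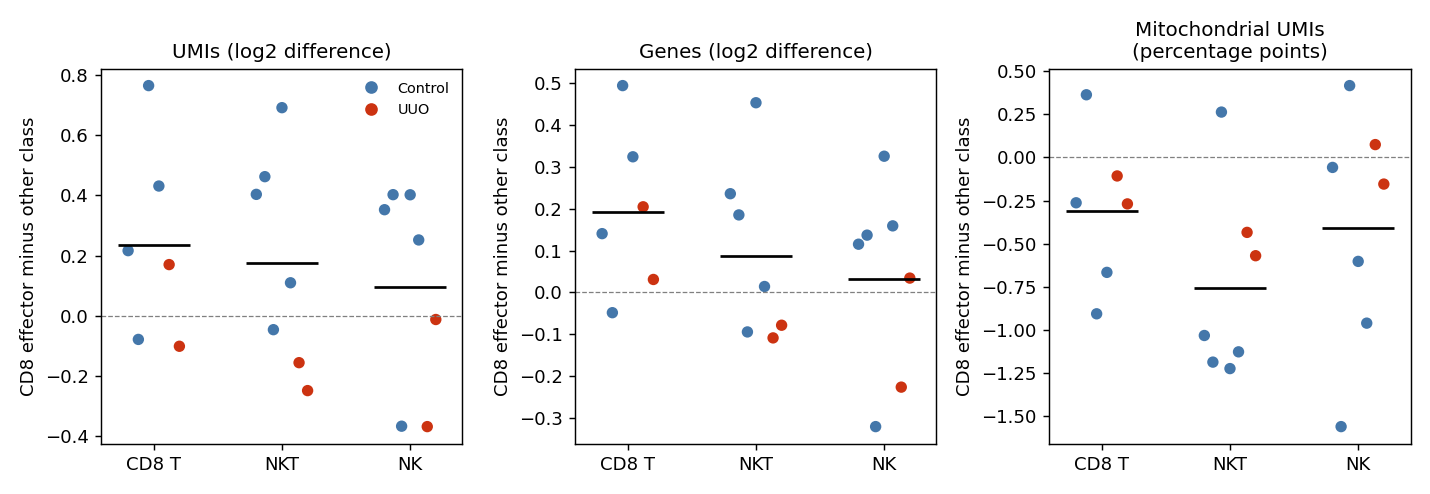
Difference of sample medians between CD8 effector cells and CD8 T, NKT or NK cells of the same sample, for UMIs and genes (log2) and the mitochondrial share (percentage points). Points are samples with at least 10 cells of both classes (Control blue, UUO red), black lines are means, and the lowest mean of the mitochondrial panel is -0.76 points against NKT cells.

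The position of the cells in the authors' UMAP embedding, a map that places cells with similar expression near each other and has no unit, was available for all 716 cells. CD8 effector cells formed 1 main patch centred at -8.53 on the first and -1.37 on the second axis. The nearest class centre was that of CD8 T, 1.28 away, followed by NKT at 2.07, Treg at 2.71, CD4 T at 2.93 and NK at 3.07. Among the 30 nearest cells of each CD8 effector cell, a mean of 82.8% were of the same class and 13.9% were CD8 T cells, the only other class above 5%. Treg cells supplied 1.38%, CD4 T 0.722% and NK 0.447%.

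Seen from the other side, CD8 T cells were the least compact of the 9 lymphoid classes, with 55.6% of their neighbours in their own class and 13.8% in CD8 effector. NK cells had 97.6% of their neighbours in their own class and 0.374% in CD8 effector, and NKT cells had 82.1% and 0.723%. The boundary of the effector class therefore ran mainly against CD8 T cells. These positions are made from the same expression values as the classes and are given as a description.

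Of the 716 cells, 76 (10.6%) had fewer than 50% of their neighbours in their own class, and for 62 of them CD8 T was the leading other class. They were 11 of 121 cells in Control (9.09%) and 65 of 595 in UUO (10.9%), with 22 of 216 in UUO 1 and 43 of 379 in UUO 2. In UUO these cells had a median of 2252 UMIs and 1080 genes, against 1675.5 UMIs and 860.5 genes in the other UUO cells of the class. In Control the medians were 1581 and 1690.5 UMIs, the other order, from 11 and 110 cells. These medians pool cells of libraries of unlike depth. Control 1 had the order of UUO, at 1837.5 and 1278 UMIs, and Controls 3, 4 and 5 had the other. Controls 2 and 6 held no such cells. Only 5 cells had no neighbour of their own class.

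Control and UUO cells of the class lay in the same patch. Class and position were made from the same expression values, so a shared patch is partly built in. The distance and its test below therefore do not show that the groups agree. The sample medians on the first axis were -8.60 and -8.50 in UUO 1 and 2, and -8.36, -8.31, -8.86, -8.35, -8.71 and -8.44 in Controls 1 to 6. On the second axis they were -1.39 and -1.36 in UUO and between -1.54 and -1.06 in Control. The UUO values lay inside the Control range on both axes. The group means of the sample medians were 0.107 apart, less than the distance to any other class centre, with an exact permutation p of 0.571 (n = 5 and 2). The distance was 0.179 without Control 5 (exact permutation p = 0.0667, the smallest possible for 4 samples against 2), 0.0702 without Control 2 and 0.0672 without UUO 1. UUO cells made up a mean of 77.9% of the same-class neighbours of Control cells and 84.4% of those of UUO cells, where 83.1% of the class came from UUO.

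**Figure D5:**
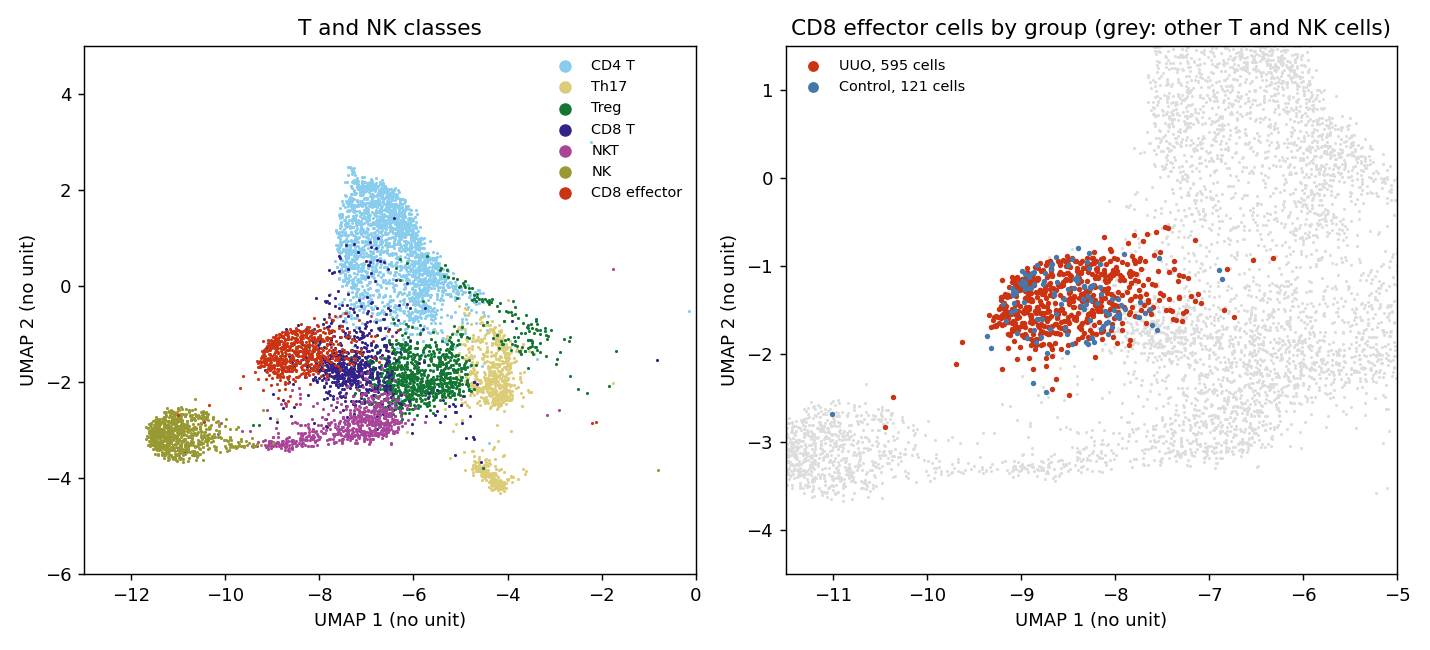
UMAP positions (no unit) of the T and NK classes on the left and of CD8 effector cells by group on the right, with 121 Control cells in blue over 595 UUO cells in red and other T and NK cells in grey. Each point is a cell, 16 points on the left and 3 CD8 effector cells on the right lie outside the frames, and cells of both groups share the patch beside CD8 T.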

How the data were processed

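Single-cell 3′ libraries of 6 Control and 2 UUO samples were deposited as 1 table of cells with their class and sample names. UMIs and genes per cell are raw counts made by the authors, and the mitochondrial share was deposited as a percent. UMAP coordinates, a score with no unit, were deposited for 25200 cells, all outside the class PT. Cell Ranger 6.0.1, Seurat 4.0.1 and mm10 are named in the submitters' processing notes, which do not tell how cells were filtered, classed or embedded. No doublets were removed here.

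Members, lists and tests were chosen with earlier results of these data known. The classes named are CD8 effector, CD8 T, NKT, NK, CD4 T, Treg, Th17, Prolif Ly and any class with at least 5% of the 30 nearest neighbours. Shares were taken as log2((n + 0.5)/(N - n + 0.5)) per sample. Shares of all and of immune cells, and sample medians (at least 20 cells), were fitted over all classes with limma 3.58.1 in R 4.3.3, with Benjamini-Hochberg adjustment and a threshold of 0.05. Other values were compared by two-sided exact permutation over samples, or by exact sign flips within samples (at least 10 cells of each class, or 5 in the range of 1000 to 2000 UMIs). The smallest exact p is 0.0476 for 5 samples against 2, and 0.0156 or 0.0312 for sign flips in 7 or 6 samples. edgeR 4.0.16 on cell numbers was an alternative. The functions were run on simulated data with known shifts, in which UUO shares varied like Control shares. That run does not give the error rates of the tests in these data. From 9 to 379 cells of the class per library limit the precision of each value.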

Additional observations from a re-analysis of the deposited data

Results flagged for a closer look

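The pooled Controls 3 and 4 held 70.1 CD8 effector cells per 100 CD4 T cells, far from the 14.9 to 26.2 of the other Control samples. Taken singly these libraries gave 40.9 and 84.4, from 22 and 45 CD4 T cells, and the UUO samples gave 22.9 and 47.3. It was the only value of the 14 examined in this way that stood so far apart, and chance alone marks about 1 in 20 such groups.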

How the results depend on the processing

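The higher share of all cells kept its direction in every alternative run, between 2.14 without UUO 2 and 3.49 without UUO 1 when 1 library was left out. It was no longer called without UUO 2 (limma adjusted p = 0.108) or by exact permutation over the classes (2.81, adjusted p = 0.111). The number of classes called fell from 14 to 3 without UUO 1. Among immune cells, where 0 of 15 classes were called, the class was called in the libraries over 10000 cells (1.42, with 6 classes called) and without Controls 3 and 4 (1.25, with 5 called). Both of these runs leave out Control 4.

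The share of both CD8 classes changed sign with at least 1000 UMIs per cell (-0.066), in the libraries over 10000 cells (-0.034) and without Controls 3 and 4 (-0.23). With 1 library left out it ran from -0.11 to 0.21, the share of T lineage cells from -0.017 to 0.71, UMIs per cell from -0.21 to 0.15 and genes per cell from -0.042 to 0.22. Genes per cell were -0.035 with at least 1000 UMIs, -0.042 with a minimum of 30 cells and -0.040 under 10% mitochondrial UMIs. Without either UUO library, depth and mitochondrial share could not be fitted, since at least 2 samples a group were asked for. The mitochondrial difference ran from -1.55 to -0.27 with 1 library left out, and from -1.63 (means over cells) to -0.17 (minimum of 5 cells) over the other settings. In the fits of depth and mitochondrial share, leaving out Control 4 also dropped Control 3, which held 9 cells of the class. The share of lymphoid cells ran from 0.45 to 1.11 with 1 library left out. The distance in the embedding was 0.0353 in the libraries over 10000 cells and 0.0509 with means over cells. Against Treg, the log2 ratio was 0.30 with 8 separate samples, 0.013 with at least 1000 UMIs and 0.13 in the libraries over 10000 cells. With 1 library left out the ratios ran from -0.28 to 0.33 (Treg), -0.26 to 0.78 (CD4 T) and -0.68 to 0.12 (Th17).

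Within samples, genes against NK were -0.00020 with at least 1000 UMIs, -0.047 with a minimum of 30 cells and between -0.017 and 0.091 with 1 library left out. UMIs were -0.0030 against CD8 T with a minimum of 30 cells, and -0.012 and -0.086 against NK under those same settings. The group difference of these values changed sign with a minimum of 30 cells for genes (0.17), UMIs (0.11) and mitochondrial share (-0.55) against CD8 T and mitochondrial share against NKT (-0.022). With means over cells it did so for mitochondrial share against NK (-0.19) and NKT (-0.11). None of these passed its test in either form. The cause of each change was not tested.

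With the replicate number as a replicate block, which the labels share only for numbers 1 and 2, the share of all cells was 2.93 (limma adjusted p = 0.0309), that of immune cells 1.08 (adjusted p = 0.104, with 7 classes called) and that of both CD8 classes -0.42. The embedding distance was 0.227 with the block. Deviations of same-numbered samples from their group means correlated at -0.333 and 0.0554. With 2 UUO samples the deviations of one are those of the other with the sign turned, so these are not separate checks. Whether same-numbered samples share more than a number cannot be told from them. No block could be fitted for depth in this class, since no shared number had 20 cells in both groups. Few Control cells of the class per library (9 to 38) limit every value.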
